A study of Mus musculus with 18 samples.

Results

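The expression of 45 genes of the core autophagy machinery was followed in young, old and rejuvenated old mesenchymal stem cells (MSCs) of the mouse. The genes were taken by name from a list of textbook autophagy genes, which was chosen with earlier results of these data known. All 45 were present among the 27179 genes of the expression table, each averaging 10 or more normalized counts over the 18 libraries. They were placed in 5 steps, with 5 genes of initiation, 13 of nucleation and membrane supply, 16 of the conjugation systems, 7 cargo receptors and mitophagy factors, and 4 genes of the late steps up to fusion with the lysosome.

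MSCs were the adherent stromal cells grown from the marrow of C57BL6 mice, of 6 weeks for the young and of 18 to 24 months for the old cells. All mice were male according to the study's methods, although Y-linked reads were nearly absent in the young libraries, as given below. RNA from 18 cultures was sequenced after 7 days, with 6 libraries in each group, and old MSCs were seeded at 100000 cells per well. Young and old MSCs were untreated, whereas the rejuvenated group consisted of old MSCs kept in one well with young MSCs across a Transwell membrane with 0.4 µm pores, which soluble factors but not cells can cross. Old MSCs cultured beside other old MSCs were not analysed here, so the presence of neighbouring cells and the age of their donor cannot be told apart in the rejuvenated group. The sample titles call the libraries biological replicates. The sources used here give neither the number of animals behind the libraries nor whether cells were pooled, and all p-values therefore measure the spread between these libraries only.

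Autophagy encloses cytoplasm in a double membrane and delivers it to the lysosome. The ULK1 kinase complex starts the process, a lipid kinase complex built on Beclin 1 marks the growing membrane, and ubiquitin-like conjugation attaches LC3 and GABARAP proteins to it, where receptors such as p62 bring the cargo. In stromal and stem cells the pathway clears damaged mitochondria and protein aggregates, and transcript levels are not a measure of the flux through it.

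The libraries held 22936251 to 29559194 reads on genes, and the lowest value of any member in any library was 185 normalized counts (Atg4c in a young library). Of 12 stromal markers, 5 were higher and 7 lower in young than in old MSCs, against 41.6% and 44.1% of all genes. Their log2 fold changes ran from -5.48 for Eng to 6.70 for Thy1. Pdgfrb, a receptor of stromal cells, was between 10554 and 11196 normalized counts in young, 17132 and 17612 in old and 15480.4 and 16736 in rejuvenated old MSCs. Cd44, Ly6a (which encodes SCA-1) and Col1a1 were likewise present in all 18 libraries. Eng, Thy1 and Nt5e, which encode the surface proteins CD105, CD90 and CD73, are named here after their values were seen. The study typed its MSCs by other surface proteins. By flow cytometry it reported CD44 and SCA-1 as present in young and old MSCs alike. It reported CD34, CD31 and CD45, the protein of Ptprc, as absent at both ages. Eng lay between 147 and 175 normalized counts in young, 7008 and 7681 in old and 7557 and 8158 in rejuvenated old MSCs. Thy1 and Nt5e went the other way, with at least 175 and 254 in young MSCs, and reached at most 3.23 and 23.1 normalized counts in old and 21.6 and 21.4 in rejuvenated old MSCs. The young libraries stood apart in 3 further ways. The 20 macrophage markers summed to 989.5 to 1116, against 19328 to 23797 in old and 19239.7 to 23124 in rejuvenated old MSCs, and the leukocyte and macrophage genes Ptprc and Adgre1 were at 0 in all 6 young libraries. The Y-linked genes Ddx3y, Kdm5d, Uty and Eif2s3y summed to at most 5.15 in young, 5035 to 5604 in old and 4898 to 5980 in rejuvenated old libraries. Xist, the RNA that silences an X chromosome in female cells, was between 21.2 and 41.2 in young, 1.97 and 14.4 in old and 4.83 and 10.3 in rejuvenated old libraries. Y-linked reads were thus nearly absent in young libraries, where the methods state male mice and Xist reached at most 41.2. The cause was not tested. The median change of whole chromosomes between young and old MSCs departed from 0, most on chromosomes 1, 7, 12 and 16. These differences moved with the comparison of young and old MSCs, and their part in it was not tested other than by centring each chromosome, as given below.

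Old and rejuvenated old MSCs were compared to see how co-culture with young cells altered the autophagy genes of old cells. The changes were small, and lower expression was more frequent than higher expression. Of the 45 members, 20 were lower and 6 were higher in rejuvenated old than in old MSCs at an adjusted p under 0.05 (limma on log2 normalized counts, Benjamini-Hochberg adjustment over 14353 genes), and 19 were not called. The lower members made up 44.4% of the list, where 20.6% of all tested genes were called lower, and the higher members 13.3%, where 21% of all genes were called higher. Either way, 41.6% of all genes were called. The median log2 fold change of the members was -0.07 against 0.01 for all genes, and their median absolute change was 0.13 against 0.15. Log2 fold changes ran from -0.29 for Ulk1 to 0.36 for Atg16l2, which corresponds to 0.819 and 1.28 times the level in old MSCs. All libraries of both groups were separated for 11 lower and 4 higher members, against 11.6% and 10.4% of all genes. In bulk RNA, fewer cells of a type and less RNA per cell cannot be told apart.

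Young MSCs differed from old MSCs by more, and in both directions. In this comparison 18 members were higher and 19 lower in young MSCs, with 41.6% and 44.1% of all genes called in the same directions and 85.7% called in all. The other 8 members were not called, and the groups did not overlap for 18 of the higher and 18 of the lower members, against 35.7% and 38.2% of all genes. The median log2 fold change was 0.03 and the median absolute change 0.47, compared with -0.02 and 0.60 over all genes. Between young and rejuvenated old MSCs, 22 members were higher and 18 lower in young cells, against 41.5% and 44.1% of all genes (85.6% in all). The groups did not overlap for 20 of the higher and 14 of the lower members, against 34% and 36.5% of all genes. The comparisons of old MSCs with rejuvenated old and with young MSCs share the 6 old libraries, so their values for a gene are given side by side and are not independent.

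**Figure D1:**
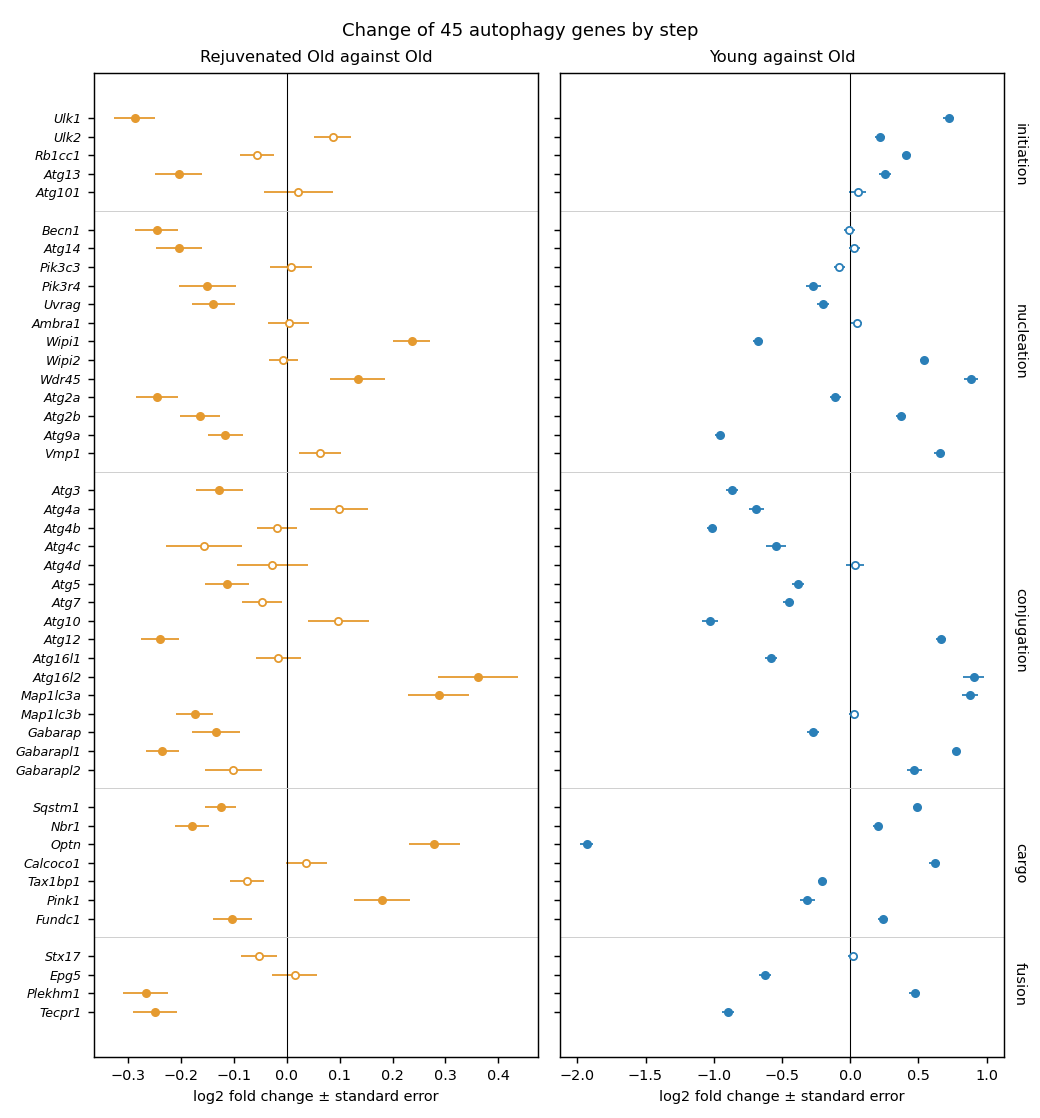
Log2 fold change of each of the 45 members, ordered by step, in rejuvenated old against old MSCs (left) and in young against old MSCs (right), with bars for the standard error of the limma fit. Filled points passed an adjusted p of 0.05 and open points did not, and the left axis spans a much smaller range than the right. Changes in rejuvenated old MSCs ran from -0.29 to 0.36 with most points left of 0, and those in young MSCs from -1.93 for Optn to 0.90 for Atg16l2.

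The steps hold few genes each, and their counts stand beside the shares of all genes just given. Of the 5 genes of initiation, 4 (Ulk1, Ulk2, Atg13 and Rb1cc1) were higher in young than in old MSCs, while rejuvenated old MSCs had lower expression of 2 and higher expression of 0. Of the initiation genes, Ulk2 alone was higher at an unadjusted p under 0.05 after co-culture in limma, and edgeR and DESeq2 called 0 higher. In young MSCs 0 initiation genes were lower by any of the 3 tools or at an unadjusted p under 0.05. Ulk1 (gene ID 22241, chromosome 5), the kinase that starts autophagosome formation, ranged from 2196 to 2447 normalized counts (median 2332) in the young libraries, from 1362 to 1506 (1411) in the old and from 1093 to 1258 (1151) in the rejuvenated old. No library of any group overlapped those of another, and Ulk1 was highest in young and lowest in rejuvenated old MSCs. Against old MSCs, its log2 fold change was -0.29 ± 0.04 after co-culture (SE, n = 6 per group, limma adjusted p = 2.99e-06) and 0.72 ± 0.04 in young MSCs (adjusted p = 3.19e-14). Atg13 (gene ID 51897, chromosome 2), the adaptor that ties the kinase to its scaffold, had a median of 922 (853 to 949) normalized counts in young, 766 (705 to 796) in old and 671 (605 to 708) in rejuvenated old MSCs. It had the same order of groups, -0.20 ± 0.04 in rejuvenated old (adjusted p = 0.000815) and 0.26 ± 0.04 in young against old MSCs, although the lowest old library lay within the rejuvenated range. Rb1cc1 (gene ID 12421, chromosome 1), which encodes the scaffold FIP200, lay between 1340.1 and 1475 (median 1422) normalized counts in old MSCs, between 1281 and 1455 (1355) in rejuvenated old and between 1842 and 1909 (1877) in young MSCs. It was thus higher in young MSCs (0.41 ± 0.03) and not called after co-culture (-0.06 ± 0.03, adjusted p = 0.178). Ulk2, the second kinase of the family, gave 0.09 ± 0.04 after co-culture (adjusted p = 0.0581) and was higher in young MSCs at 0.22. After co-culture the call was made without old replicate 2 or 5 or rejuvenated old replicate 5 (adjusted p = 0.0423, 0.0491 and 0.0144, in that order), and also with the same 75th percentile in each library (0.0414), quantile normalization (0.0413) and centred chromosomes (0.0491). Atg101, a partner of Atg13, was not called in either comparison, with 0.02 and 0.05, and turned to -0.15 in young MSCs with chromosomes centred (adjusted p = 0.0343).

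Among the genes of nucleation and membrane supply, 7 of 13 were lower and 2 were higher in rejuvenated old MSCs, whereas 4 were higher and 5 lower in young MSCs. These are 53.8% and 15.4% after co-culture, against 20.6% and 21% of all genes. In young MSCs they are 30.8% and 38.5%, against 41.6% and 44.1% of all genes. The scaffold of the lipid kinase complex was lower after co-culture and was not called with age. Becn1 (gene ID 56208, chromosome 11), which encodes Beclin 1, ranged from 1933 to 1999 normalized counts (median 1948) in the young libraries, from 1872 to 2033 (1985) in the old and from 1462 to 1837 (1683) in the rejuvenated old. All rejuvenated libraries lay below all old libraries (-0.25 ± 0.04, limma adjusted p = 4.76e-05), and the young and old ranges overlapped (-0.01 ± 0.04, adjusted p = 0.879). Atg14, the subunit that directs this complex to autophagy, had -0.20 ± 0.04 after co-culture (adjusted p = 0.000615) and 0.03 in young MSCs, which was not called. With the same total in each library Atg14 was higher in young MSCs (0.11, adjusted p = 0.0288), and with chromosomes centred it was lower (-0.15, adjusted p = 0.00196). The catalytic subunit Pik3c3 was not called in either comparison (0.01 ± 0.04 and -0.08 ± 0.04), and in young against old MSCs the call was made without young replicate 2 or old replicate 6 (adjusted p = 0.0491 and 0.0407, in that order). With these 2 groups fitted alone its adjusted p was 0.0475, and with chromosomes centred it was higher in young MSCs (0.16, adjusted p = 0.00121). The regulator Ambra1 was not called either, at 0.00 and 0.05, but it was called higher in young than in old MSCs with the same total (0.12, adjusted p = 0.0102), the same 75th percentile (0.09, 0.0466), quantile normalization (0.09, 0.0393) and centred chromosomes (0.13, 0.00527).

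The other subunits of the lipid kinase complex were lower in both other groups than in old MSCs. Pik3r4 (gene ID 75669, chromosome 9), its regulatory kinase-like subunit, had a median of 701 (633 to 769) normalized counts in young, 856 (781 to 871) in old and 786 (638 to 799) in rejuvenated old MSCs. The change after co-culture was -0.15 ± 0.05 (limma adjusted p = 0.0307), but the call was lost without old replicate 2, 3, 4 or 6 or rejuvenated old replicate 5 (adjusted p = 0.0548, 0.0619, 0.0537, 0.0526 and 0.0846, in that order). Uvrag (gene ID 78610, chromosome 7), which replaces Atg14 in a complex of endosomal traffic, lay between 1314 and 1381 (median 1319) normalized counts in old MSCs, between 1070.0 and 1342 (1220.2) in rejuvenated old and between 1106 and 1202 (1159.6) in young MSCs. Its old libraries lay close together and the rejuvenated libraries spread from below to within their range, with -0.14 ± 0.04 after co-culture (adjusted p = 0.00866) and -0.20 ± 0.04 in young MSCs.

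Of the readers of the lipid mark, Wipi1 and Wdr45 were higher after co-culture and differed in direction between young and old MSCs. Wipi1 (gene ID 52639, chromosome 11), a protein that binds the phosphoinositide made by the complex, ranged from 1573 to 1731 normalized counts (median 1651) in the young libraries, from 2513 to 2786 (2615) in the old and from 2928 to 3261 (3099.8) in the rejuvenated old. It was higher in every rejuvenated than in every old library (0.24 ± 0.03, adjusted p = 1.01e-05) and lower in every young library (-0.67 ± 0.03). Wdr45 (gene ID 54636, chromosome X), which encodes the related protein WIPI4, had a median of 2217 (2048 to 2338) normalized counts in young, 1197 (1088 to 1299.7) in old and 1335 (1182 to 1446) in rejuvenated old MSCs. It was higher in young MSCs by 0.88 ± 0.05, whereas its rise after co-culture was 0.13 ± 0.05 with overlapping groups (limma adjusted p = 0.0425), and the call was lost without old replicate 1, 2, 3 or 5 or rejuvenated old replicate 2, 3, 4 or 5 (adjusted p = 0.0502, 0.107, 0.0917, 0.0678, 0.0664, 0.0839, 0.0845 and 0.112, in that order). The same call was missed with the replicate number as a block (adjusted p = 0.073), with the same total in each library (0.067), without a filter on low values (0.062), with each chromosome centred (0.061) and with the 2 groups fitted alone (0.058). Wipi2, which recruits the conjugation machinery, was higher in young MSCs (0.54 ± 0.03) and not called after co-culture (-0.01 ± 0.03).

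Of the genes that supply membrane and lipid to the growing autophagosome, Atg2a, Atg2b and Atg9a were lower after co-culture. Atg2a (gene ID 329015, chromosome 19), a lipid transfer protein, lay between 1577 and 1736 (median 1645) normalized counts in old MSCs, between 1282 and 1498 (1407) in rejuvenated old and between 1470.5 and 1651 (1524) in young MSCs. The rejuvenated libraries lay below all old libraries (-0.25 ± 0.04, limma adjusted p = 3.38e-05). In young against old MSCs, where the ranges overlapped, its change was -0.11 ± 0.04 (adjusted p = 0.0152), a call that was not made with the same total (adjusted p = 0.47), the same 75th percentile (0.12), quantile normalization (0.11) or centred chromosomes (0.19). Its paralogue Atg2b (gene ID 76559, chromosome 12) ranged from 1569.9 to 1692 normalized counts (median 1592) in the young libraries, from 1188 to 1359 (1214) in the old and from 1032 to 1153 (1138) in the rejuvenated old. Atg2b was lower than in old MSCs in all rejuvenated libraries (-0.16 ± 0.04, adjusted p = 0.00159) and higher in all young libraries (0.37 ± 0.04). Atg9a (gene ID 245860, chromosome 1), which encodes the membrane protein carried on the seed vesicles, had a median of 1075 (1032 to 1146) normalized counts in young, 2098 (1943 to 2185) in old and 1906 (1881 to 2031) in rejuvenated old MSCs. The young level was 0.515 times the old level (-0.96 ± 0.03), and the rejuvenated libraries were slightly lower than the old (-0.12 ± 0.03, adjusted p = 0.00825) with overlap. Vmp1, a membrane protein of the endoplasmic reticulum, was higher in young MSCs (0.66 ± 0.04) and not called after co-culture (0.06 ± 0.04).

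**Figure D2:**
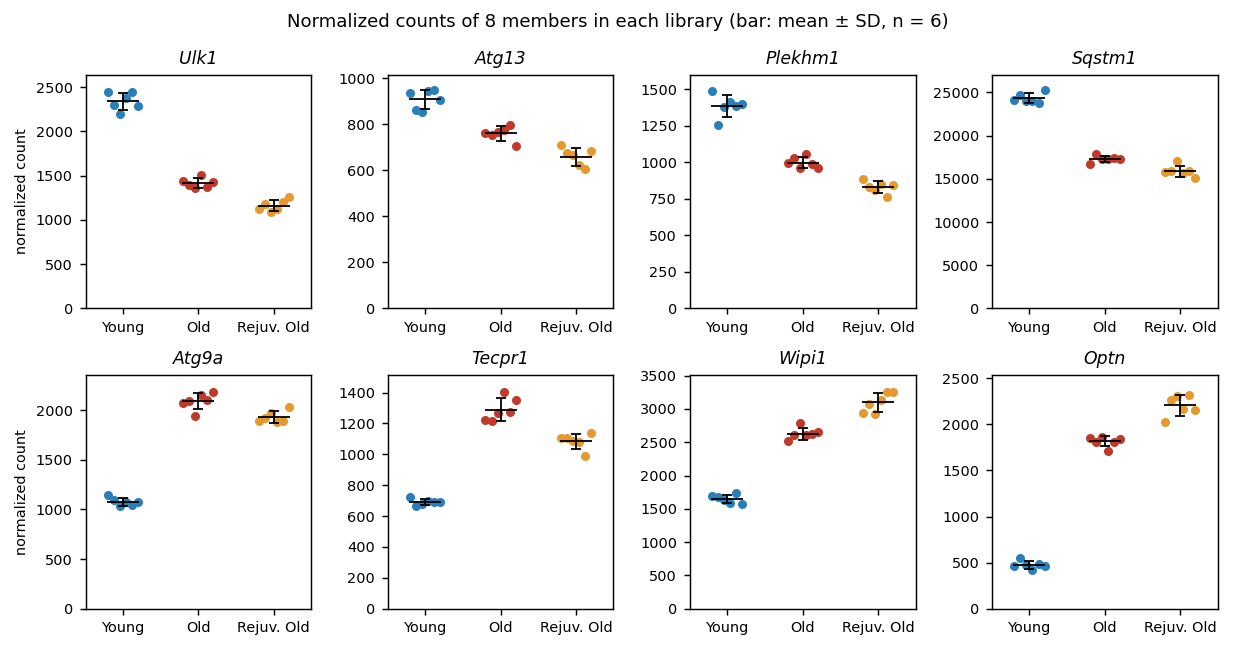
Normalized counts of Ulk1, Atg13, Plekhm1, Sqstm1, Atg9a, Tecpr1, Wipi1 and Optn in each of the 18 libraries, by group (young, old, rejuvenated old), with the mean and SD of 6 libraries, and all axes start at 0. In Ulk1, Atg13, Plekhm1 and Sqstm1 the mean was highest in young and lowest in rejuvenated old MSCs, in Atg9a and Tecpr1 it was lowest in young and highest in old MSCs, and in Wipi1 and Optn it was lowest in young and highest in rejuvenated old MSCs.

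The genes of the conjugation systems moved in both directions. In rejuvenated old MSCs 6 of the 16 genes were lower and 2 higher, and in young MSCs 9 were lower and 5 higher. These are 37.5% and 12.5% after co-culture, against 20.6% and 21% of all genes. In young MSCs they are 56.25% and 31.25%, against 44.1% and 41.6% of all genes, which also moved in both directions. Among the enzymes that process and attach the ubiquitin-like proteins, those lower in young than in old MSCs included the E1-like Atg7 (-0.45 ± 0.04) and the proteases Atg4a (-0.69 ± 0.05) and Atg4c (-0.54 ± 0.07). None of these 3 was called after co-culture, with -0.05, 0.10 and -0.16, although for Atg4a the call was made without rejuvenated old replicate 5 (adjusted p = 0.0449), and Atg4c was called lower with quantile normalization (-0.19, adjusted p = 0.0345). Atg4d was not called in either comparison (-0.03 ± 0.07 and 0.04 ± 0.07).

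Atg4b (gene ID 66615, chromosome 1), the main protease that trims LC3, lay between 2358 and 2419 (median 2366) normalized counts in old MSCs, between 2235 and 2438 (2375) in rejuvenated old and between 1065 and 1293 (1199.6) in young MSCs. The young level was 0.496 times the old level, with no overlap (-1.01 ± 0.04), and old and rejuvenated libraries overlapped (-0.02 ± 0.04, limma adjusted p = 0.736). Atg10 (gene ID 66795, chromosome 13), the E2-like enzyme for Atg12, ranged from 204 to 254 normalized counts (median 230.0) in the young libraries, from 441 to 502 (465) in the old and from 460.5 to 529.5 (509) in the rejuvenated old. It showed the same pattern, with -1.02 ± 0.06 in young and 0.10 ± 0.06 in rejuvenated old MSCs (adjusted p = 0.189). Atg12 (gene ID 67526), the ubiquitin-like protein that Atg10 transfers to Atg5, had a median of 2726 (2552 to 2961) normalized counts in young, 1727 (1677 to 1797) in old and 1486 (1366 to 1526) in rejuvenated old MSCs. Unlike its enzyme, Atg12 was higher in all young libraries (0.67 ± 0.04) and lower in all rejuvenated libraries (-0.24 ± 0.04, adjusted p = 1.41e-05).

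Atg5, the acceptor of Atg12, and Atg3, the E2-like enzyme that attaches LC3 to lipid, were both lower in young MSCs, with a smaller decrease after co-culture. Their promoters are shown because both carry the E-box core CACGTG, a sequence that transcription factors such as TFEB, a regulator of lysosomal and autophagy genes, bind. The 250 bases before the transcript start used in the RefSeq promoter table (GRCm38.p6) are given 5′ to 3′, with the E-box core in capitals.
Atg3, chr16:45158579-45158828, plus strand: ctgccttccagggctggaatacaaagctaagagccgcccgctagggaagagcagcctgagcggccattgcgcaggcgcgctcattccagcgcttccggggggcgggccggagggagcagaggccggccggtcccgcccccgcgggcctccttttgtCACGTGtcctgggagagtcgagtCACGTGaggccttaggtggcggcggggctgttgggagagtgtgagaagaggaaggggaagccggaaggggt
Atg5, chr10:44268089-44268338, plus strand: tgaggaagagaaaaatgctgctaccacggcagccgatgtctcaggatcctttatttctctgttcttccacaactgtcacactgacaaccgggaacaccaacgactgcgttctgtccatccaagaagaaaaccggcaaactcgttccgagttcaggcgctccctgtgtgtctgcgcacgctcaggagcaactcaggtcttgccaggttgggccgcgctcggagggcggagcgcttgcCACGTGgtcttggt
In Atg3 the matches began 94 and 71 bases before that start, which is also the start of the annotated gene. In Atg5 the match began 14 bases before it, but the annotated RefSeq gene begins further upstream, so that the last 17 bases shown, the match among them, lie inside the gene. Of the 38 members with a promoter in the table, 3 held CACGTG in these 250 bases on either strand (Atg3, Atg5 and Atg7), or 7.89%, against 6.86% of the 27025 genes with a promoter. The antioxidant response element TGACNNNGC was found in 4 members (10.5%, against 11.5% of all genes) and the FoxO sequence GTAAACA in 0 of 38 (against 3.54% of all genes). Binding was not measured, and a match is only a description of the letters.

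Atg3 (gene ID 67841, chromosome 16) lay between 1847 and 2309.9 (median 2098) normalized counts in old MSCs, between 1725 and 2000.0 (1907) in rejuvenated old and between 1103 and 1188 (1135) in young MSCs. Young MSCs had the lowest values (-0.87 ± 0.04), and the change after co-culture was -0.13 ± 0.04 with overlapping groups (limma adjusted p = 0.0244), although the call was lost without old replicate 1 or 2 or rejuvenated old replicate 5 (adjusted p = 0.0505, 0.0742 and 0.0692, in that order). Atg5 (gene ID 11793, chromosome 10) ranged from 911 to 989 normalized counts (median 928) in the young libraries, from 1167 to 1294 (1233) in the old and from 1051 to 1245 (1131) in the rejuvenated old. Its young libraries also lay below all others (-0.38 ± 0.04), and its change after co-culture was -0.11 ± 0.04 (adjusted p = 0.034), but the call was lost without old replicate 1, 2, 3 or 5 or rejuvenated old replicate 2, 5 or 6 (adjusted p = 0.081, 0.068, 0.0581, 0.0519, 0.065, 0.0766 and 0.0842, in that order). With the 2 groups fitted alone its adjusted p was 0.053.

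The 2 genes for ATG16L proteins differed. Atg16l2 (gene ID 73683, chromosome 7) had a median of 401 (334 to 434) normalized counts in young, 209 (195 to 219.8) in old and 264 (231 to 317) in rejuvenated old MSCs. This gene had the largest increase of any member after co-culture (0.36 ± 0.08, limma adjusted p = 0.000535) and was higher still in young MSCs (0.90 ± 0.08), at a low level throughout. Atg16l1, the widely used paralogue, places the conjugation complex on the membrane. Atg16l1 was lower in young MSCs (-0.58 ± 0.04) and not called after co-culture (-0.02 ± 0.04). Its direction in young MSCs depended on the centring of chromosome 1, as given below.

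The LC3 and GABARAP genes encode the proteins that are attached to the autophagosome and bind cargo receptors, and they did not move together. Map1lc3a (gene ID 66734, chromosome 2) lay between 2670.4 and 3243 (median 3098) normalized counts in old MSCs, between 3244 and 4275 (3689) in rejuvenated old and between 5147 and 6034 (5717) in young MSCs. It was higher after co-culture by 0.29 ± 0.06 (limma adjusted p = 0.000389), where the highest old and the lowest rejuvenated library differed by less than 1 normalized count, and higher in young MSCs by 0.88 ± 0.06. Map1lc3b (gene ID 67443, chromosome 8), the form most often used as a marker of autophagosomes, ranged from 7076 to 7793 normalized counts (median 7538) in the young libraries, from 7064 to 7602 (7331) in the old and from 6069 to 6988 (6639) in the rejuvenated old. All rejuvenated libraries lay below all old libraries (-0.17 ± 0.04, adjusted p = 0.000433), and young and old MSCs overlapped (0.03 ± 0.04, adjusted p = 0.512). In young against old MSCs Map1lc3b was called higher with the same total (0.10, adjusted p = 0.00956) and quantile normalization (0.09, 0.0228), and lower with centred chromosomes (-0.10, 0.00711). The 2 LC3 genes thus changed in opposite directions after co-culture.

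Gabarapl1 (gene ID 57436, chromosome 6) had a median of 4360.4 (4191 to 4522) normalized counts in young, 2545 (2397 to 2709.6) in old and 2161 (2072 to 2257) in rejuvenated old MSCs. It was higher in all young libraries (0.78 ± 0.03) and lower in all rejuvenated libraries (-0.24 ± 0.03, limma adjusted p = 2.69e-06). Gabarap (gene ID 56486, chromosome 11) lay between 1937 and 2379 (median 2199.7) normalized counts in old MSCs, between 1897 and 2101 (2008) in rejuvenated old and between 1681 and 1932 (1848) in young MSCs. It was lower in young MSCs (-0.27 ± 0.04) and lower after co-culture at -0.13 ± 0.04 with overlap (adjusted p = 0.0207), though the call was lost without old replicate 3 or 4 (adjusted p = 0.0603 and 0.0533, in that order). Gabarapl2 (gene ID 93739, chromosome 8) ranged from 797 to 886 normalized counts (median 843) in the young libraries, from 576 to 628 (611) in the old and from 509.7 to 669 (562) in the rejuvenated old. It was higher in young MSCs (0.47 ± 0.05) and not called after co-culture (-0.10 ± 0.05, adjusted p = 0.138), although the call was made without rejuvenated old replicate 4 (adjusted p = 0.0119).

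Levels of the 5 genes were compared per kilobase of the principal annotated transcript, since longer transcripts collect more reads. In old MSCs the order was Map1lc3b with 2903 ± 86.2, Map1lc3a with 2747 ± 189.7, Gabarap with 1628 ± 114, Gabarapl1 with 1402 ± 56.2 and Gabarapl2 with 362 ± 11.9 normalized counts per kilobase (mean ± SD, n = 6). The first and second of these were closer than the SD of Map1lc3a, so their order in old MSCs is not resolved. In young MSCs Map1lc3a led with 5057 ± 338, before Map1lc3b with 2955 ± 108, Gabarapl1 with 2403 ± 71.0, Gabarap with 1348 ± 76.3 and Gabarapl2 with 501 ± 17.8. Gabarapl1 therefore stood above Gabarap in young MSCs and below it in old MSCs. In rejuvenated old MSCs Map1lc3a was again first with 3357 ± 319, followed by Map1lc3b with 2575 ± 146, and Gabarap with 1482 ± 53.2 remained above Gabarapl1 with 1191 ± 37.3. These levels depend on the transcript taken for each gene.

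**Figure D3:**
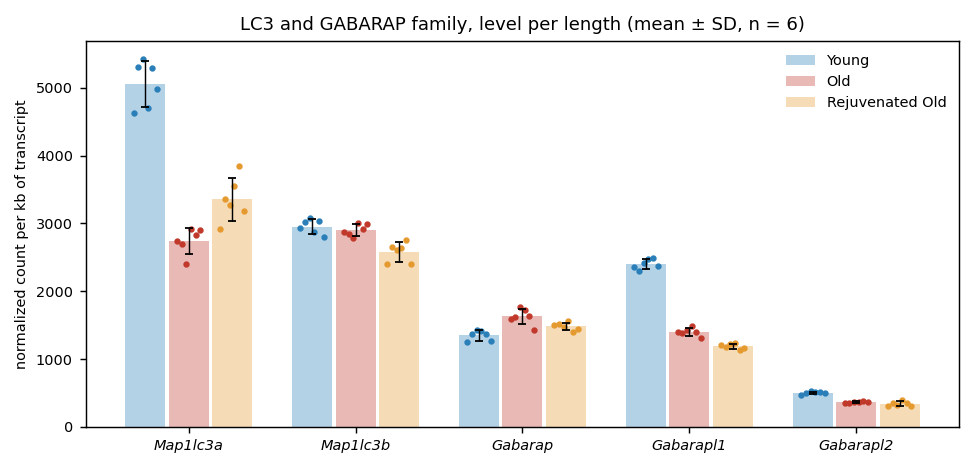
Level of the 5 LC3 and GABARAP family genes in normalized counts per kilobase of the principal transcript, with points for the 18 libraries and bars for the mean ± SD of 6 libraries in young, old and rejuvenated old MSCs. Map1lc3a was at 5057 per kilobase in young against 2747 in old MSCs, while Map1lc3b was at 2955 and 2903.

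The cargo receptors divided in direction in both comparisons, with 3 of 7 lower and 2 higher in rejuvenated old MSCs, and 3 lower and 4 higher in young MSCs. These are 42.9% and 28.6% after co-culture, against 20.6% and 21% of all genes, and 42.9% and 57.1% in young MSCs, which is near the 44.1% and 41.6% of all genes. Sqstm1 (gene ID 18412, chromosome 11), which encodes p62, the receptor for ubiquitinated cargo, had a median of 24079 (23739 to 25257) normalized counts in young, 17266 (16715 to 17878) in old and 15817 (15032 to 17030.5) in rejuvenated old MSCs. Per kilobase it had the highest level of the 45 members in each group, 8491 ± 183 in old MSCs. It was higher in all young libraries (0.49 ± 0.03) and lower after co-culture (-0.12 ± 0.03, limma adjusted p = 0.00168), with 1 rejuvenated library inside the old range. Nbr1 (gene ID 17966, chromosome 11), a receptor that works with p62, lay between 3858 and 4157 (median 3963) normalized counts in old MSCs, between 3223 and 3639 (3559.9) in rejuvenated old and between 4414 and 4834 (4542) in young MSCs. It followed the same order, with separated groups and changes of 0.20 ± 0.03 and -0.18 ± 0.03 (adjusted p = 0.000109).

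Optn (gene ID 71648, chromosome 2), which encodes optineurin, a receptor of mitophagy and of bacteria, ranged from 423 to 549.8 normalized counts (median 469.8) in the young libraries, from 1713 to 1864 (1829.7) in the old and from 2022 to 2319 (2217) in the rejuvenated old. It had the largest difference of any member between young and old MSCs, 0.262 times the old level (-1.93 ± 0.05, limma adjusted p = 1.81e-20), and rose further after co-culture (0.28 ± 0.05, adjusted p = 7.48e-05). Pink1 (gene ID 68943, chromosome 4), the kinase that marks damaged mitochondria, had a median of 2099 (1904 to 2333) normalized counts in young, 2638 (2439 to 2775) in old and 2949.8 (2611 to 3304) in rejuvenated old MSCs. Pink1 was lower in all young libraries (-0.31 ± 0.05) and higher after co-culture, with overlap (0.18 ± 0.05, adjusted p = 0.00937). The mitophagy genes were not uniform, since Fundc1 (gene ID 72018, chromosome X), a receptor on the mitochondrial outer membrane, lay between 1107 and 1184 (median 1133) normalized counts in old MSCs, between 982 and 1104 (1065) in rejuvenated old and between 1279.9 and 1467 (1328) in young MSCs. Fundc1 was higher in young (0.24 ± 0.04) and lower in rejuvenated old MSCs (-0.10 ± 0.04, adjusted p = 0.0315), but the call was lost without old replicate 1 or 5 or rejuvenated old replicate 6 (adjusted p = 0.0585, 0.0738 and 0.0789, in that order).

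Calcoco1 (gene ID 67488, chromosome 15), a receptor of the endoplasmic reticulum and Golgi, ranged from 5317 to 5792 normalized counts (median 5526) in the young libraries, from 3409.8 to 3806 (3595) in the old and from 3318 to 4017 (3718) in the rejuvenated old. It was higher in young MSCs (0.62 ± 0.04) and did not pass the test after co-culture (0.04 ± 0.04, limma adjusted p = 0.482). Tax1bp1, another ubiquitin-binding receptor, was lower in young MSCs (-0.21 ± 0.03) and gave -0.07 ± 0.03 after co-culture (adjusted p = 0.0684), and the call was made without old replicate 6 or rejuvenated old replicate 2 or 4 (adjusted p = 0.0381, 0.0394 and 0.0412, in that order). It was also called lower after co-culture with the same total (adjusted p = 0.0157), quantile normalization (0.0335), centred chromosomes (0.0321) and DESeq2 (0.0398).

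Of the 4 genes of the late steps, 2 were lower after co-culture and 0 were higher by limma, edgeR or DESeq2 or at an unadjusted p under 0.05, while 1 was higher and 2 were lower in young MSCs. Of all genes, 20.6% were lower and 21% higher after co-culture, and 41.6% were higher and 44.1% lower in young MSCs. Plekhm1 (gene ID 353047, chromosome 11), an adaptor that joins Rab7, LC3 and the tethering complex of the lysosome, had a median of 1395 (1254 to 1489) normalized counts in young, 992 (962 to 1055) in old and 837 (759.9 to 885) in rejuvenated old MSCs. All 3 groups were separated, with -0.27 ± 0.04 in rejuvenated old (limma adjusted p = 2.73e-05) and 0.47 ± 0.04 in young against old MSCs. Tecpr1 (gene ID 70381, chromosome 5), a protein of the autophagosome and lysosome membranes, lay between 1213 and 1405 (median 1269) normalized counts in old MSCs, between 990.0 and 1136 (1095) in rejuvenated old and between 663 and 725 (692) in young MSCs. It was lower than in old MSCs in both other groups, at -0.25 ± 0.04 after co-culture (adjusted p = 4.45e-05) and -0.90 ± 0.04 in young MSCs. Epg5 (gene ID 100502841), a tethering factor of fusion, ranged from 731 to 824 normalized counts (median 783) in the young libraries, from 1131 to 1303 (1225) in the old and from 1134 to 1289 (1233) in the rejuvenated old. It was lower in young MSCs (-0.63 ± 0.04) and not called after co-culture (0.01 ± 0.04). Stx17, the SNARE protein of the autophagosome, was not called in either comparison (-0.05 ± 0.03 and 0.02 ± 0.03), but was called higher in young than in old MSCs with the same total (0.09, adjusted p = 0.0216) and centred chromosomes (0.13, 0.0018).

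Several members lie on chromosomes whose genes differed as a whole between young and old MSCs. In young against old MSCs all tested genes had a median log2 fold change of -0.69 on chromosome 1 (800 genes), 0.61 on chromosome 7 (1032 genes), -0.46 on chromosome 12 (496 genes) and -0.75 on chromosome 16 (446 genes). In rejuvenated old against old MSCs the same medians were -0.01, 0.06, 0.01 and -0.01. When each library was centred per chromosome, the change in young MSCs of Atg9a went from -0.96 to -0.27 ± 0.03, that of Atg4b from -1.01 to -0.32 ± 0.04, and that of Atg3 from -0.87 to -0.12 ± 0.04. These stayed lower in young MSCs, whereas Atg16l1 turned from -0.58 to 0.11 ± 0.04. Rb1cc1 on chromosome 1 and Atg2b on chromosome 12 had risen against the median of their chromosome and went from 0.41 to 1.10 and from 0.37 to 0.84. On chromosome 7, Uvrag went from -0.20 to -0.80 and Atg16l2 from 0.90 to 0.30. Optn, Tecpr1, Map1lc3a and Gabarapl1, on chromosomes with medians between -0.10 and 0.08, were then at -1.85, -0.90, 0.96 and 0.72. Members on other chromosomes moved as well. Atg10 went from -1.02 to -0.71, Atg5 from -0.38 to -0.19 and Epg5 from -0.63 to -0.38. Calcoco1 went from 0.62 to 0.42 and Fundc1 from 0.24 to 0.09. Others became larger in size, such as Atg12 (0.67 to 0.91) and Pik3r4 (-0.27 to -0.45).

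**Figure D4:**
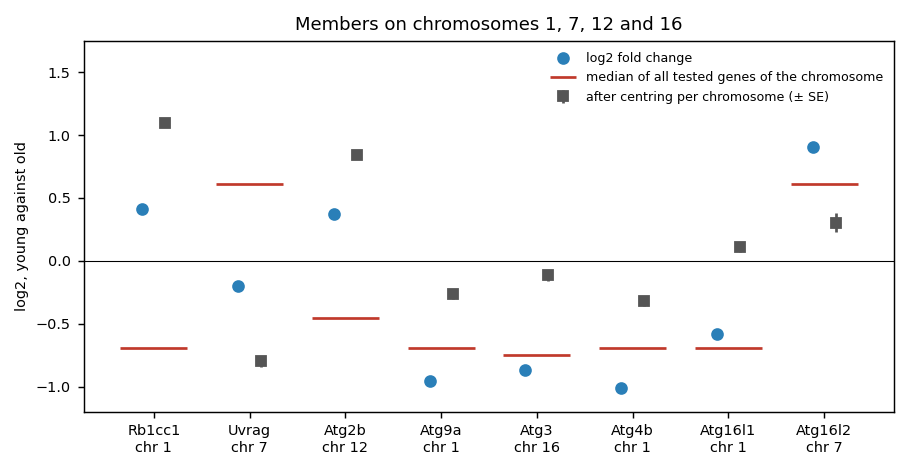
Log2 fold change in young against old MSCs of the 8 members on chromosomes 1, 7, 12 and 16 (circles), the median of all tested genes of the same chromosome (lines), and the change after centring each library per chromosome with its SE (squares). Atg9a, Atg4b, Atg3 and Atg16l1 lay near or below their chromosome median, and Rb1cc1 and Atg2b above it.

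Reads of some members can also come from other genes. The annotated exons of Becn1 shared 43.9% of their bases with Cntd1 on the opposite strand, those of Gabarapl1 28.3% with 1700101I11Rik, Uvrag 17.6% with Gm45187, Sqstm1 17.3% with Mrnip and Atg4d 19.3% with Kri1, also on the opposite strand. Wdr45 shared 24.7% with Gm45208 on the same strand. Atg9a shared 31.8% on the same strand and 0.798% on the opposite strand. Its overlapping genes were Ankzf1 and Gm29253, and the shares were not split between them. The kit was stranded, but the strand setting of the counting is not given in the sources used here, and the split of these reads was not tested.

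Genes that work upstream and downstream of the members were examined in lists of their own. After co-culture, 20.6% of all tested genes were lower and 21% higher, and the counts of each list stand beside these shares. Of 17 genes of the mTORC1 and AMPK kinases, which restrain or activate ULK1, 6 were lower and 3 higher in rejuvenated old MSCs. Deptor and Mlst8, both of mTOR complexes, were lower at -0.45 ± 0.14 and -0.34 ± 0.06. Of 13 further nucleation factors 7 were lower and 0 higher, with Sh3glb1, a membrane-bending protein, at -0.22 ± 0.04 and Atg9b, a paralogue of Atg9a with at most 25.0 normalized counts, at -1.09 ± 0.26. Of 16 further fusion factors 8 were lower and 1 higher. Arl8b, a small GTPase of lysosome movement, and Vps18, a subunit of the tethering complex, gave -0.46 ± 0.06 and -0.36 ± 0.04.

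The lysosomal list, the end point of the pathway, had 18 of 22 genes lower and 0 higher after co-culture, and its median change was -0.31 on the log2 scale. Ctsb, a cathepsin protease, was at -0.59 ± 0.04 and Gusb, a glycosidase, at -0.59 ± 0.06. For the lists with 0 higher genes, limma at an unadjusted p under 0.05, edgeR and DESeq2 also gave 0. In young against old MSCs 14 of the 22 lysosomal genes were lower and 6 higher. These are 63.6% and 27.3%, against 44.1% and 41.6% of all genes. The 2 named genes differed in direction there, with Ctsb at 0.37 ± 0.04 and Gusb at -1.22 ± 0.06. A separate list of 18 further genes of selective autophagy had 6 higher and 3 lower after co-culture. These are 33.3% and 16.7%, against 21% and 20.6% of all genes. Bnip3, a mitophagy receptor that is induced by low oxygen, ran between 895 and 1019.6 normalized counts in old and between 2125 and 3174 in rejuvenated old MSCs (1.35 ± 0.06), and its young libraries were higher still (1.88 ± 0.06). This change was larger than that of any of the 45 members after co-culture. Retreg1, a receptor for the endoplasmic reticulum, also rose in both, by 0.56 ± 0.08 and 2.27 ± 0.08. Of the 12 transcription factors of autophagy genes 5 were higher and 3 lower, among them Ddit3, a factor of the stress response, at 0.42 ± 0.09 and Foxo3 at -0.39 ± 0.09.

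Markers of other cell types were compared beside the change after co-culture, in which 21% of all genes were higher and 20.6% lower. Among 19 tested macrophage markers 1 was higher (Itgam) and 1 lower (Cd68) in rejuvenated old MSCs, and Csf1r and Ptprc were not called, at 0.06 ± 0.07 and -0.26 ± 0.13. The summed level overlapped between old and rejuvenated old libraries, as given above. Of 6 adipocyte markers 4 were higher and 1 lower, and the sum of the 8 listed genes was 43187 to 45586 in old and 47588 to 60639.6 in rejuvenated old MSCs. Of 12 stromal markers 3 were higher, with Ly6a at 1.07 ± 0.10, and 6 were lower, with Col1a1 at -0.41 ± 0.05 and Cd44 at -0.30 ± 0.06. Of 6 osteoclast markers 3 were lower, and of 3 endothelial markers 1 was lower, with 0 higher in these lists by limma, edgeR or DESeq2 or at an unadjusted p under 0.05. In young against old MSCs all 19 macrophage and all 6 adipocyte markers were lower, as against 2 of 6 osteoclast, 1 of 3 endothelial and 7 of 12 stromal markers. Of all genes, 44.1% were lower in that comparison. Whether these shifts in cell markers bear on the members was not tested.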

How the data were processed

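Reads of 18 libraries were aligned to mm10 with HISAT2 by the authors, who used StringTie and featureCounts for quantification and DESeq2 for normalization. Versions, annotation, filters and strand setting are not given in the sources used here. For each gene and library the deposited table holds a signal, namely the read count over the size factor of that library, with no pooling of replicates. Whole reads were recovered for 100% of the values, within 0.1 of a read. Pairs of libraries within a group differed by more than sampling noise (chi-square over its degrees of freedom, 2.64 to 24.0), and each counted as 1 replicate. Libraries were grouped by their titles.

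The members and the other gene lists were chosen with earlier results of these data known. Log2(value + 1) was fitted with limma 3.58.1 (R 4.3.3), with the 3 groups in 1 model and the variance trend, for 14353 genes with a mean of at least 10, and p-values were adjusted by Benjamini-Hochberg over all of them. Genes with an adjusted p under 0.05 were called. A fold change is a difference of group means on this scale and understates that of genes with few counts. Full values are given for members called in both comparisons with old MSCs, for the 2 most changed called members of each step in each of them, and for the LC3 and GABARAP genes. From each other pathway list the 2 most changed called members after co-culture are named. Alternatives were other pseudocounts, filters, scalings and thresholds, fits of 2 groups, a replicate block, centring per chromosome, leaving out each library, and edgeR 4.0.16 and DESeq2 1.42.0 on the recovered reads. The tests were first tried on simulated counts. Gene positions and promoters were taken from RefSeq for GRCm38.p6 and exons and principal transcripts from the GENCODE annotation of the same assembly (mm10), in which all 45 members were found.

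Replicate numbers did not pair the libraries, since same-numbered deviations correlated between -0.152 and 0.0736. The deepest library had 1.29 times the reads of the shallowest.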

Additional observations from a re-analysis of the deposited data

Results flagged for a closer look

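In each group of 6 libraries, the highest and the lowest value of every member were compared with the nearest other value by Dixon's test. In 7 of 135 groups (5.19%) 1 library stood apart, where chance gives about 5%. Among rejuvenated old libraries, replicate 5 was the lowest for Pik3r4, with 637.9 normalized counts against 761.0 to 798.6 in the others, and for Atg3, with 1725 against 1897 to 2000.0. Both are members whose call after co-culture was lost without that library. Rejuvenated old replicate 6 was the lowest for Fundc1, with 982.0 against 1059 to 1104, and that call was likewise lost without it. Among old libraries, replicate 4 was the lowest for Optn, with 1713 against 1813 to 1864, and replicate 6 the highest for Ambra1, with 2192 against 1992 to 2056. Among young libraries, replicate 6 was the lowest for Atg7, with 1356 against 1464 to 1507, and replicate 3 the highest for Tax1bp1, with 6753 against 6148 to 6365. The Optn calls were kept under all 31 alternatives.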

How the results depend on the processing

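Under 31 alternatives, of which 18 left out 1 library, the counts of called members stayed within 1.5 times the reported ones in all 3 comparisons. Leaving out a library gave 5 to 7 members higher and 17 to 22 lower after co-culture, 18 higher each time and 19 to 20 lower in young against old MSCs, and 22 to 23 higher and 16 to 19 lower in young against rejuvenated old MSCs. Of the called members, 20 of 26 after co-culture, 35 of 37 in young against old and 30 of 40 in young against rejuvenated old MSCs kept their call under every alternative. In the last comparison Pik3c3 and Pik3r4 also lost it when any of several single libraries was left out. With the replicate number as a block, 5 members were higher and 20 lower after co-culture (Wdr45 was lost), and 18 were higher and 19 lower in young against old MSCs. In young against rejuvenated old MSCs it gave 22 higher and 16 lower. A direction called before or after the change of setting was turned only in comparisons with young MSCs. With chromosomes centred, the log2 fold change in young against old MSCs became -0.15 for Atg101, -0.15 for Atg14, 0.16 for Pik3c3, 0.11 for Atg16l1 and -0.10 for Map1lc3b. In young against rejuvenated old MSCs it became -0.17 for Atg101, 0.11 for Pik3c3, 0.018 for Atg3, 0.11 for Atg16l1 and -0.0027 for Atg16l2, and Pik3c3 was at 0.0013 with the same total in each library. The cause was not tested beyond the centring itself.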
